A study of Mus musculus with 32 samples.

Results

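The macrophage genes are 35 genes of macrophage and myeloid cells, listed by symbol: complement C1q chains, surface receptors and their adaptors, lysosome genes, and markers of resident macrophages and of leukocytes at large. On 32 Affymetrix arrays, each was represented by its probe set of highest mean signal. All 35 had a probe set, among 18193 gene symbols on the platform. A gene was tested when its signal lay above the 40th percentile of the array on at least 4 arrays, which 32 of the 35 did, as did 13705 genes in all. The other 3, Cd163, Itgam and Itgb2, are described by their levels.

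The arrays measured jaw tissue of mouse embryos (strain background C57B6) at embryonic day 13.5. In the group labelled Alk5 knockout, the floxed gene for the TGF-beta type I receptor Alk5 (symbol Tgfbr1) was recombined by Wnt1-Cre, a driver of the premigratory neural crest that gives rise to most jaw mesenchyme. The cross was between Wnt1-Cre mice heterozygous for the floxed allele and mice homozygous for it, and mutants were recognised by cleft palate and a calvarial defect. The controls were littermates whose alleles are not named in the sources used here. Mandible and maxilla were each divided into a distal and a proximal end, so that genotype, jaw and end gave 8 groups of 4 arrays, numbered 1 to 4.

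Macrophages of the embryo arise from blood-forming precursors of the yolk sac and fetal liver, not from the neural crest, and settle in every organ. They depend on the receptor Csf1r and the transcription factor Spi1, engulf dying cells, and digest them in lysosomes. C1q opens the classical complement cascade and marks debris for removal. Trem2 and its adaptor Tyrobp sense lipids, and Apoe carries them. TGF-beta is a well-known regulator of macrophage state. In RNA from whole tissue, fewer macrophages and less RNA per macrophage cannot be told apart.

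Several arrays stood apart. The 8 arrays of number 1 had the Cre hybridization control, a spike-in and not the transgene, at 13.77 to 14.02, against 12.56 to 13.35 on the other arrays. The tested Tgfbr1 probe set read 12.55 to 12.82 on the log2 scale in controls and 12.80 to 13.32 in knockouts, an average difference of 0.26 (limma adjusted p = 0.0637). The 2 other Tgfbr1 probe sets were also higher in the knockouts on average, by 0.37 and 0.63. The position of the probes with respect to the floxed part is not given in the sources used here, so they do not check the genotype labels, and "control" and "knockout" below mean the arrays so labelled. The arrays of control 2 and knockout 1 had Xist and Y-linked levels of female tissue and the others of male tissue, except that both maxilla arrays of control 3 held Xist signal beside Y-linked signal at the male level. The difference between distal and proximal maxilla ran opposite in control 2 and knockout 4 to the other 6 sets (correlation over genes -0.83 to -0.06, but 0.76 with each other). The distal mandible array of control 3 had a Gapdh 3′ minus 5′ difference of 2.23, against -0.18 to 0.12 on the other 31. Nothing says that arrays of different number came from different embryos, so the p-values reflect how much these arrays vary, which may in part be technical.

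The windows upstream of the genes are shown first, as a description that was not tested against the differences in level. RefSeq promoter entries (assembly GRCm38.p6) were matched by symbol for 27 of the 35 genes, with 34 windows of 250 bases before a transcription start. The 8 without an entry were Cd14, Adgre1, Lyve1, C1qa, Spi1, Csf1r, Tyrobp and Itgb2. GAGGAAG, the core to which the macrophage factor PU.1 (encoded by Spi1) is known to bind, was searched on both strands, where it reads CTTCCTC on the other. It was found in 10 of 34 windows (29.4%), against 10.6% of all 32851 windows of this length and 10.8% of those of tested genes. The genes with a match were C1qc, F13a1, Fcgr1, Fcgr3, Itgam, Laptm5, Mrc1, Pf4 and Trem2, and the 2 windows of Fcgr3 overlap and share theirs. Further motifs were searched the same way. TGACTCA, an AP-1 site, was found in 8.82% of members’ windows and 4.46% of all, TGCTGAC, a MAF site, in 5.88% and 3.81%, and CACGTG, an E-box found in lysosome genes, in 0% and 6.02%. A match describes letters and is not evidence of binding. Of the 10 members that rose on average, C1qc, Trem2 and Fcgr3 had a match. Ms4a7, Apoe, Mpeg1, Ctss and C3ar1 had windows without one, and C1qa and Adgre1 had no window. The windows below were chosen because C1qc, Trem2 and Fcgr3 were higher in the knockout and Pf4 was lower. Mrc1 was added because it holds 2 matches, and Mpeg1 because it was higher without a match. Capitals mark GAGGAAG or its reverse complement.
C1qc, chr4:136892915-136893164, minus strand: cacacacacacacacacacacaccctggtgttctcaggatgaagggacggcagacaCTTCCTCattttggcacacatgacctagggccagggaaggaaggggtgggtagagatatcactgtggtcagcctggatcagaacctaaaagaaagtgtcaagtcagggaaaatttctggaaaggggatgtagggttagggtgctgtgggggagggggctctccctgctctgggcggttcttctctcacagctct
Trem2, chr17:48346151-48346400, plus strand: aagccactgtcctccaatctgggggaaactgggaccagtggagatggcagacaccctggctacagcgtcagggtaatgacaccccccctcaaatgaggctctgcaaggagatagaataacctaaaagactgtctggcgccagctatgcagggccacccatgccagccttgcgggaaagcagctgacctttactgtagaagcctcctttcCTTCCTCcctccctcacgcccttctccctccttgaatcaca
Fcgr3, chr1:171059404-171059653, minus strand: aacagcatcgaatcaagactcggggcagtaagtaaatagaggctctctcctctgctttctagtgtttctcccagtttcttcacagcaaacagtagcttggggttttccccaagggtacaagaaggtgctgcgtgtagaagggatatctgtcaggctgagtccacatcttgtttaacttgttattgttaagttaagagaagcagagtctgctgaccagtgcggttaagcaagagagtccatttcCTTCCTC
Mrc1, chr2:14229164-14229413, plus strand: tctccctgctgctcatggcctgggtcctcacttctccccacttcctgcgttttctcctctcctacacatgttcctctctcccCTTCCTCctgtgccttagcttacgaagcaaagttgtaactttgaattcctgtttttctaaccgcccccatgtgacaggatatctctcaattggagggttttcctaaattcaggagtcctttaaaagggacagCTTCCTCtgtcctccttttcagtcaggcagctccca
Pf4, chr5:90772185-90772434, plus strand: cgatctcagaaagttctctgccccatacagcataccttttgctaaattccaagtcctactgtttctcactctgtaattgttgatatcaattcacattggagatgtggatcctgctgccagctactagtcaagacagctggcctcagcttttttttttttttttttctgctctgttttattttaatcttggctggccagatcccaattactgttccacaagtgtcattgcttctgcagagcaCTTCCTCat
Mpeg1, chr19:12460520-12460769, plus strand: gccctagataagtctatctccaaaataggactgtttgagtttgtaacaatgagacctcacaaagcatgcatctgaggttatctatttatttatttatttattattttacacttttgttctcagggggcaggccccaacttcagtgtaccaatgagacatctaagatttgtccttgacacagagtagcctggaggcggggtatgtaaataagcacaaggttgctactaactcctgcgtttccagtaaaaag
The match lay 194 bases before the start in C1qc, 41 in Trem2, 7 in Fcgr3, 9 in Pf4, and 168 and 36 in Mrc1. C1qc, which has a match, lies between C1qb and C1qa as their direct neighbour in the gene order of chromosome 4, and Ms4a7 and Ms4a6c lie 4 places apart on chromosome 19.

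Averaged over the 4 regions, 10 of the 32 tested macrophage genes rose in the knockout and 22 were not called. For every genotype and number the 4 regional arrays were averaged. Then 4 values were compared with 4, unpaired, by limma with Benjamini-Hochberg adjustment over the 13705 genes. Of all genes tested 0.503% rose, while 0 members fell, where 0.868% of all genes did. With genotype and number as a random block in the fit of 8 groups, 14 members were called, of which 1, Pf4, was lower, among 562 genes called in all. The 10 were Ms4a7, Apoe, Mpeg1, C1qc, C1qa, Ctss, Adgre1, C3ar1, Fcgr3 and Trem2. The median difference of the 32 was 0.46 on the log2 scale, against 0 for all genes, and 26 of the 32 differences were positive. The 6 tested genes of resident and scavenging macrophages, Mrc1, Stab1, Lyve1, Folr2, F13a1 and Pf4, had a median of -0.31, and 0 of them were called. With the number as a block, Fcgr3 and Adgre1 were no longer called (adjusted p = 0.0571 and 0.0615), and 9 members were. Without number 1, which in the distal mandible held the highest control values of Mrc1, F13a1 and Lyve1, 21 members were called, but so were 939 of all genes, against 188 with it. Leaving out control 2, 3 or 4 or knockout 2, 3 or 4 alone left 3 to 5 members called. Without control 2 and knockout 4 together, 0 were called by limma, with 18 of 32 at an unadjusted p under 0.05 (9.81% of all genes) and 3 genes called in the whole table.

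**Figure D1:**
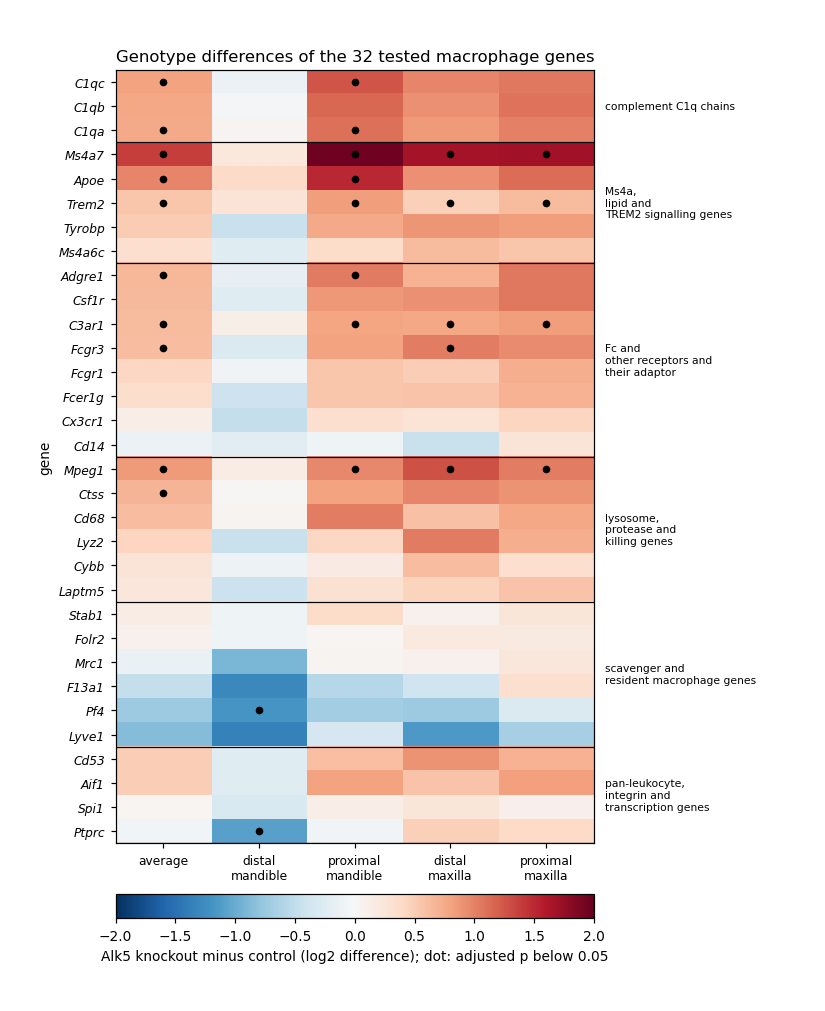
Log2 difference between Alk5 knockout and control for each of the 32 tested macrophage genes (rows, by role) in the average and in the 4 regions (columns), with a dot where the adjusted p was below 0.05. The distal mandible column is mostly pale or blue, with dots for Pf4 and Ptprc, while the other regions are mostly red outside the scavenger and resident genes.

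In the distal mandible 0 members rose (0.482% of all genes did) and 2 fell, Pf4 and Ptprc (1.43% of all genes fell). In the proximal mandible 8 rose and 0 fell (0.591% and 0.664% of all genes). At the distal end of the maxilla 5 rose and 0 fell (0.358% and 0.43%). In the proximal maxilla 4 rose and 0 fell (0.0584% and 0.0073%, of only 9 genes called there). The mean of the 32 log2 values was 7.72 ± 0.06 (SD, n = 4) in the knockout distal mandible, against 8.0 ± 0.34 in its control. In the other regions it was 8.73 to 8.77 in the knockout and 8.14 to 8.21 in the control. The 2 calls of the distal mandible were kept without any single array, that of control 3 included. At the proximal end of the mandible 5 members were called without control 2 or without knockout 1. For the distal maxilla the count was 3 without control 3 or 4 or knockout 2 or 4, 14 without control 2 and 13 without knockout 1, and 2 without both maxilla arrays of control 3. At the proximal end of the maxilla it was 0 without control 2 or knockout 2 or 3, 1 without control 1 and 2 without knockout 1. It was also 0 in each end of the maxilla when only the compared groups entered the fit.

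Of the C1q chains, the 3 subunits that assemble into C1q, C1qc and C1qa rose in the proximal mandible and on average. C1qc read 8.60, 8.20, 8.37 and 8.80 on the 4 control arrays of the proximal mandible and 9.94, 9.79, 9.74 and 9.56 on the knockout arrays. All 4 knockout arrays lay above all 4 control arrays. The difference was 1.26 ± 0.27 on the log2 scale (SE), or 2.40-fold (limma adjusted p = 0.0137). At the distal end of the mandible C1qc read 8.52, 8.02, 8.22 and 7.77 in controls and 7.84, 7.92, 8.11 and 8.21 in knockouts, and the groups overlapped. In the distal maxilla it read 8.73, 9.22, 8.01 and 8.30 in controls and 8.61, 9.94, 9.50 and 10.13 in knockouts. Knockout number 1 lay there within the control range, and the difference of 0.98 did not pass (adjusted p = 0.0845). For the proximal maxilla C1qc read 8.70, 7.95, 8.88 and 8.73 in controls and 9.27, 10.11, 9.79 and 9.34 in knockouts, without overlap (1.06, adjusted p = 0.176).

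C1qa read 8.19, 8.10, 8.42 and 8.69 in the control proximal mandible and 9.35, 9.52, 9.51 and 9.39 in the knockout. This rise of 1.10 ± 0.25 passed (adjusted p = 0.0227), with no overlap. C1qb read 9.41, 9.15, 9.37 and 9.78 there in controls and 10.54, 10.59, 10.59 and 10.61 in knockouts, also without overlap. Its difference of 1.15 ± 0.31 missed the threshold (adjusted p = 0.0628). For the distal mandible the differences of C1qa and C1qb were 0.05 and -0.04. Averaged over regions, C1qc was 8.44 ± 0.13 (SD, n = 4) in controls and 9.24 ± 0.22 in knockouts, C1qa 8.26 ± 0.05 and 9.01 ± 0.26, and C1qb 9.30 ± 0.10 and 10.08 ± 0.34. The average differences were 0.80, 0.75 and 0.78 (adjusted p = 0.0246, 0.0265 and 0.0523), so the chains had like sizes although C1qb missed the threshold. The 2 other C1qb probe sets gave average differences of 0.63 and 0.64, and -0.26 and -0.77 in the distal mandible.

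Ms4a7, a tetraspanning membrane protein of macrophages, had the largest rise of the 32. It read 7.65, 7.52, 7.38 and 7.82 in the control proximal mandible and 9.50, 9.51, 9.65 and 9.51 in the knockout. The groups were far apart, by 1.95 ± 0.29 or 3.87-fold (adjusted p = 0.000374). In the distal mandible it read 7.24, 6.86, 7.59 and 7.15 in controls and 7.01, 7.56, 7.76 and 7.34 in knockouts, which overlapped. At the distal end of the maxilla it read 7.84, 8.31, 7.03 and 7.34 in controls and 8.26, 9.72, 9.41 and 9.76 in knockouts. Only knockout number 1 there fell below the highest control, and the rise of 1.66 ± 0.29 passed (3.15-fold, adjusted p = 0.00477). In the proximal maxilla it read 7.56, 7.08, 7.85 and 7.95 in controls and 8.78, 9.91, 9.49 and 9.0 in knockouts. These did not overlap (1.68 ± 0.29, 3.22-fold, adjusted p = 0.0113). The average difference was 1.38 ± 0.15, or 2.60-fold (adjusted p = 0.00837). Its relative Ms4a6c had an average difference of 0.33 (adjusted p = 0.110) and region differences from -0.24 in the distal mandible to 0.63 in the distal maxilla.

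Apoe, the apolipoprotein that macrophages secrete to carry lipid, read 10.11, 9.94, 10.26 and 10.50 in the control proximal mandible and 11.84, 11.70, 11.68 and 11.61 in the knockout. The rise was 1.51 ± 0.24, or 2.84-fold (adjusted p = 0.000714). On the distal mandible arrays it read 10.08, 9.81, 9.29 and 9.82 in controls and 9.93, 10.13, 10.26 and 10.25 in knockouts, with overlap through control number 1. For the distal maxilla it read 10.50, 11.24, 10.26 and 10.49 against 10.64, 11.94, 11.64 and 11.92. At the proximal end of the maxilla it read 10.41, 10.32, 11.00 and 10.76 against 11.53, 12.12, 11.88 and 11.42. Knockout number 1 lay within the control range distally, while the proximal groups did not overlap. The maxilla differences of 0.91 and 1.11 did not pass (adjusted p = 0.0601 and 0.0583). Averaged, Apoe was 10.30 ± 0.08 (SD, n = 4) in controls and 11.28 ± 0.21 in knockouts (adjusted p = 0.00672). Apoe is also made by cells other than macrophages, among them glia and liver cells.

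**Figure D2:**
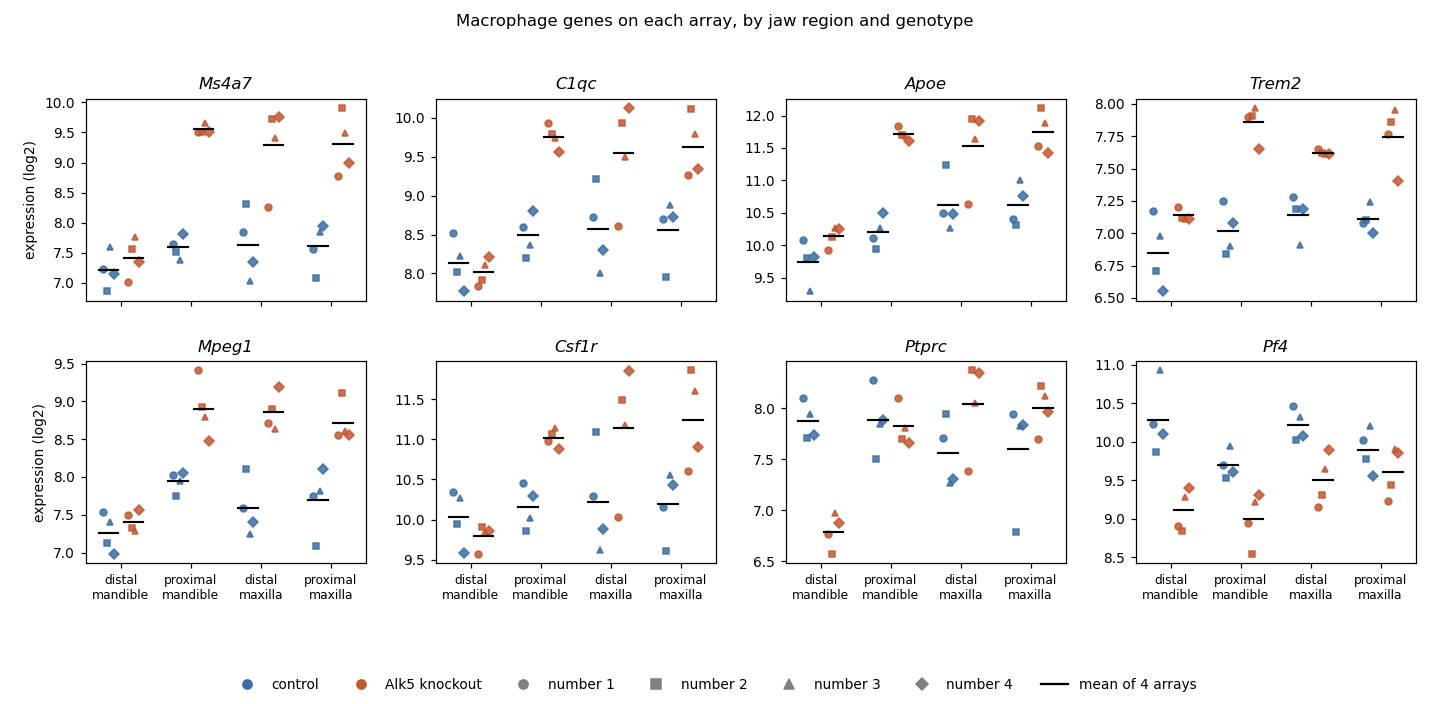
Log2 expression of 8 macrophage genes on each of the 32 arrays, by region (horizontal axis), genotype (colour) and number (marker), with the mean of 4 arrays as a black line. Ms4a7, C1qc, Apoe, Trem2 and Mpeg1 are higher in the knockout outside the distal mandible. In the distal mandible their differences are smaller, from -0.11 for C1qc to 0.39 for Apoe, and not called. Ptprc and Pf4 are lower in the knockout distal mandible, and the mean of Pf4 is also lower in the other regions.

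Trem2, the lipid receptor, was called in 3 regions. It read 7.25, 6.84, 6.90 and 7.08 in the control proximal mandible and 7.90, 7.91, 7.97 and 7.65 in the knockout (0.84 ± 0.12, adjusted p = 0.000192). In the distal maxilla it read 7.28, 7.19, 6.91 and 7.19 in controls and 7.65, 7.62, 7.61 and 7.61 in knockouts (0.48 ± 0.12, adjusted p = 0.0478). For the proximal maxilla it read 7.08, 7.10, 7.24 and 7.0 against 7.77, 7.86, 7.95 and 7.40 (0.64 ± 0.12, adjusted p = 0.0286). In none of these 3 regions did the groups overlap. The call was lost in 0 of 16 settings tried in the proximal mandible. In the distal maxilla the call was lost in 15 of 19 settings, and in the proximal maxilla in 11 of 19. For the distal mandible Trem2 read 7.17, 6.71, 6.98 and 6.55 against 7.20, 7.12, 7.11 and 7.11, and 2 control arrays lay under the low-signal level. The difference there, 0.28, was also positive but did not pass (limma adjusted p = 0.224). A second Trem2 probe set was under that level on all arrays, with an average difference of -0.04.

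Tyrobp, the signalling adaptor of Trem2, read 9.55, 8.72, 9.10 and 9.43 in the control proximal mandible and 10.10, 9.92, 9.93 and 9.93 in the knockout, without overlap. In the distal mandible it read 9.50, 8.75, 9.29 and 8.52 against 8.83, 8.38, 8.54 and 8.52, lower by 0.45 in the mean and overlapping. Its values in the maxilla were 9.39, 9.58, 8.51 and 8.69 against 8.95, 10.30, 9.86 and 10.56 distally, and 9.51, 8.43, 9.46 and 9.21 against 9.66, 10.34, 10.26 and 9.68 proximally. Both proximal ends were free of overlap. Tyrobp was called in no region and not on average (average difference 0.51).

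Among the receptors, Adgre1, the classical surface marker of mouse macrophages, read 7.96, 7.85, 7.68 and 7.92 in the control proximal mandible and 9.06, 8.92, 9.04 and 8.58 in the knockout. This rise of 1.04 ± 0.24 passed (adjusted p = 0.0249). On the distal mandible arrays it read 8.20, 7.54, 7.87 and 7.30 against 7.45, 7.64, 7.66 and 7.53, within the control range. At the distal end of the maxilla it read 7.83, 8.35, 7.28 and 7.55 against 7.65, 8.71, 8.54 and 8.91. In the proximal maxilla it read 7.61, 7.13, 7.81 and 7.76 against 8.09, 9.08, 8.85 and 8.52. The proximal maxilla groups did not overlap, but the difference of 1.06 did not pass (adjusted p = 0.101). The average rise was 0.66 ± 0.12 (adjusted p = 0.0382).

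Csf1r, the receptor for the growth factors on which macrophages depend, read 10.45, 9.86, 10.02 and 10.29 in the control proximal mandible and 10.98, 11.07, 11.14 and 10.88 in the knockout. It read 10.34, 9.95, 10.27 and 9.58 in the control distal mandible and 9.57, 9.91, 9.85 and 9.86 in the knockout. The distal groups overlapped and the proximal groups did not. For the distal maxilla it read 10.29, 11.09, 9.62 and 9.88 against 10.03, 11.49, 11.18 and 11.85, and in the proximal maxilla 10.16, 9.61, 10.55 and 10.43 against 10.60, 11.86, 11.60 and 10.90. The maxilla showed the same split, with overlap at the distal end only. Csf1r was called in no comparison, with an average difference of 0.65 ± 0.16 (adjusted p = 0.0999). Its 2 other probe sets gave 0.50 and 0.35.

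C3ar1, the receptor for the complement fragment C3a, was called in the same 3 regions as Trem2. It read 7.75, 7.75, 7.68 and 7.85 in the control proximal mandible and 8.51, 8.58, 8.65 and 8.43 in the knockout (0.79 ± 0.14, adjusted p = 0.00295). It read 7.77, 7.80, 7.32 and 7.64 against 8.16, 8.64, 8.29 and 8.58 in the distal maxilla (0.78 ± 0.14, adjusted p = 0.00593). It read 7.69, 7.27, 7.68 and 7.65 against 8.36, 8.74, 8.54 and 7.99 in the proximal maxilla (0.83 ± 0.14, adjusted p = 0.0113). None of these overlapped, while in the distal mandible 7.55, 7.45, 6.97 and 7.41 stood against 7.34, 7.47, 7.49 and 7.54. Its 2 other probe sets gave average differences of 0.59 and 0.73.

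Fcgr3, an Fc receptor for immunoglobulin G, read 8.25, 8.21, 7.33 and 7.66 in the control distal maxilla and 8.53, 9.05, 8.71 and 9.23 in the knockout (1.02 ± 0.22, adjusted p = 0.0280). It read 8.0, 7.52, 7.66 and 8.10 against 8.82, 8.55, 8.60 and 8.54 in the proximal mandible, and 8.12, 7.17, 8.04 and 7.84 against 8.55, 8.93, 9.07 and 8.38 in the proximal maxilla. Groups did not overlap in these 3 regions. For the distal mandible it read 8.19, 7.45, 7.38 and 7.26 against 7.41, 7.16, 7.23 and 7.28. The related receptor Fcgr1 and the common Fc chain Fcer1g had average differences of 0.42 and 0.35 and were not called. A second Fcgr1 probe set gave 0.01.

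Cx3cr1, the fractalkine receptor of monocytes and microglia, read 8.38, 8.43, 8.52 and 8.61 against 9.12, 8.77, 8.79 and 8.60 in the proximal mandible and 8.73, 8.51, 8.38 and 8.12 against 7.85, 7.74, 8.10 and 8.14 in the distal mandible. In the distal maxilla it read 8.50, 9.27, 8.30 and 8.36 against 8.30, 9.16, 8.74 and 9.36, and in the proximal maxilla 8.65, 8.24, 8.60 and 8.55 against 8.99, 9.04, 9.06 and 8.65. Its groups overlapped in every region, its average difference was 0.14 and no comparison called it. Cd14, the lipopolysaccharide co-receptor, had the only negative average difference among the receptors, -0.12, with -0.45 in the distal maxilla (adjusted p = 0.0845).

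Of the lysosome and killing genes, Mpeg1, a pore-forming protein of phagocytes, read 8.02, 7.75, 7.95 and 8.05 in the control proximal mandible and 9.41, 8.93, 8.79 and 8.48 in the knockout (0.96 ± 0.20, adjusted p = 0.0126). It read 7.59, 8.10, 7.25 and 7.40 against 8.72, 8.90, 8.63 and 9.19 in the distal maxilla (1.27 ± 0.20, adjusted p = 0.00307). It read 7.75, 7.08, 7.82 and 8.10 against 8.56, 9.11, 8.61 and 8.56 in the proximal maxilla (1.02 ± 0.20, adjusted p = 0.0420). The groups did not overlap in these 3 regions. In the proximal maxilla the call was lost in 11 of 19 settings tried. In the distal mandible 7.54, 7.13, 7.40 and 6.98 stood against 7.49, 7.32, 7.29 and 7.56, with overlap. Averaged, Mpeg1 was 7.62 ± 0.09 (SD, n = 4) in controls and 8.47 ± 0.11 in knockouts, the smallest adjusted p of the 32 (0.00289).

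Ctss, the protease cathepsin S, read 10.27, 9.83, 9.97 and 10.25 against 11.34, 10.84, 10.83 and 10.50 in the proximal mandible and 10.10, 9.22, 9.87 and 9.05 against 9.83, 9.22, 9.55 and 9.71 in the distal mandible. In the maxilla it read 10.21, 10.29, 9.24 and 9.55 against 10.40, 10.94, 10.65 and 11.23 distally and 10.24, 9.25, 10.23 and 10.03 against 10.68, 11.36, 10.94 and 10.38 proximally. The knockout arrays lay above all controls in each region but the distal mandible. Ctss was called on average only (0.68 ± 0.11, adjusted p = 0.0346), and that call was lost in 9 of 16 settings tried.

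Lyz2, lysozyme M, read 9.01, 8.48, 8.24 and 8.45 in the control distal mandible and 8.14, 8.20, 8.05 and 8.04 in the knockout, where all knockout arrays were lower. In the distal maxilla the order was turned, with 9.14, 8.83, 8.15 and 8.66 against 9.45, 9.87, 9.56 and 10.03. It read 9.71, 8.55, 9.14 and 9.72 against 10.12, 9.50, 9.59 and 9.58 in the proximal mandible and 9.11, 7.87, 8.88 and 9.26 against 9.49, 9.54, 9.71 and 9.27 in the proximal maxilla. Lyz2 was called in no genotype comparison (distal maxilla 1.04, adjusted p = 0.0540). Cd68, the lysosomal membrane glycoprotein, had differences of 1.03 in the proximal mandible (adjusted p = 0.0628) and 0.06 in the distal mandible. Laptm5 and Cybb, a lysosomal membrane protein and the catalytic subunit of the phagocyte oxidase, had average differences of 0.22 and 0.25, and Cybb lay under the low-signal level on 22 of 32 arrays.

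Of the 6 tested genes of resident and scavenging macrophages, Pf4 was called in 1 region. Pf4, platelet factor 4, a chemokine that is also transcribed by tissue macrophages, read 10.23, 9.87, 10.93 and 10.10 in the control distal mandible and 8.91, 8.84, 9.28 and 9.40 in the knockout. It fell by 1.18 on the log2 scale (SE 0.21, 2.26-fold, adjusted p = 0.00246), with no overlap. It read 9.70, 9.53, 9.94 and 9.61 against 8.94, 8.54, 9.22 and 9.31 in the proximal mandible and 10.46, 10.02, 10.32 and 10.07 against 9.15, 9.31, 9.64 and 9.89 in the distal maxilla. These groups did not overlap either, but the differences of -0.69 and -0.72 did not pass (adjusted p = 0.119 and 0.107). In the proximal maxilla 10.03, 9.78, 10.21 and 9.56 stood against 9.23, 9.44, 9.91 and 9.85, with overlap. Megakaryocytes and platelets also make Pf4, and their markers were lower in the same place. In the distal mandible 2 of 7 fell, Itgb3 (-0.77) and Itga2b (-0.41), 0 of 7 were positive, and their median was -0.69. Their mean level was 7.80 to 8.48 in the control distal mandible and 7.27 to 7.59 in the knockout, and Gp6 lay under the low-signal level on all arrays. In the proximal mandible their mean level was 7.91 to 8.13 in controls and 7.61 to 7.74 in knockouts, with 1 of 7 positive, a median of -0.22 and 0 called. In the distal maxilla 1 of 7 was positive, with a median of -0.23 and 0 called. In the proximal maxilla 3 of 7 were positive, with a median of -0.02 and 0 called. Their part in the Pf4 differences was not tested.

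Mrc1, the mannose receptor, read 10.09, 8.75, 8.05 and 8.29 in the control distal mandible and 7.97, 7.94, 7.68 and 7.98 in the knockout. The groups did not overlap, but control number 1 was far above the others and the difference of -0.91 did not pass (adjusted p = 0.203). It read 9.19, 8.26, 8.40 and 8.49 against 8.87, 8.63, 8.75 and 8.34 in the proximal mandible. It read 10.02, 9.33, 8.53 and 8.54 against 9.12, 9.30, 8.85 and 9.46 in the distal maxilla and 9.61, 8.23, 9.05 and 8.59 against 8.49, 9.38, 9.65 and 8.83 in the proximal maxilla. Within controls, number 1 was the highest in all 4 regions. F13a1, coagulation factor XIII A, did not overlap there either, with a difference of -1.29 in the distal mandible (adjusted p = 0.101) and 9.83 on control number 1 against 8.32 to 8.73 on the other control arrays there. Lyve1, a hyaluronan receptor of perivascular macrophages and lymphatic vessels, read 8.61 on control number 1 and 4.73 to 5.55 on the other control arrays of the distal mandible. It was above the low-signal level on 6 of 32 arrays. Stab1, a scavenger receptor, and Folr2, a folate receptor, had average differences of 0.15 and 0.08.

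Ptprc (CD45), the phosphatase on all leukocytes, read 8.10, 7.71, 7.94 and 7.74 in the control distal mandible and 6.77, 6.57, 6.97 and 6.87 in the knockout. It fell by 1.08 on the log2 scale (SE 0.22, 2.11-fold, adjusted p = 0.00853), and the groups lay far apart. The knockout values there lay close to the low-signal level of 6.66 to 6.86, and Ptprc was under it on 1 of 32 arrays. For the proximal mandible it read 8.28, 7.50, 7.84 and 7.88 against 8.10, 7.70, 7.81 and 7.66, a difference of -0.06. At the distal end of the maxilla it read 7.71, 7.94, 7.27 and 7.31 against 7.38, 8.37, 8.05 and 8.34, and in the proximal maxilla 7.94, 6.79, 7.82 and 7.83 against 7.70, 8.22, 8.12 and 7.96. Both maxilla pairs overlapped.

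Spi1, the transcription factor PU.1, read 7.97, 6.94, 7.08 and 6.77 against 7.06, 7.04, 6.74 and 6.73 in the distal mandible and 7.78, 6.98, 7.10 and 7.16 against 7.90, 7.33, 7.23 and 7.12 in the proximal mandible. In the maxilla it read 7.43, 7.19, 6.89 and 7.16 against 7.58, 7.41, 7.28 and 7.34 distally and 7.74, 6.96, 7.21 and 6.91 against 7.32, 7.36, 7.42 and 7.11 proximally. Its groups overlapped in every region and its average difference was 0.04. Cd53, a leukocyte tetraspanin, and Aif1 (Iba1), an actin-binding protein of macrophages, each had an average difference of 0.49 without a call. The integrin chains Itgam and Itgb2 (CD11b and CD18) and the scavenger receptor Cd163 lay under the low-signal level on all 32 arrays, at 4.49 to 5.27, 5.49 to 6.28 and 3.91 to 4.36.

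Whether the genotype difference depended on the end of the mandible was tested as an interaction. All 32 members had a less positive or more negative difference distally than proximally, with a median of -0.85 (all genes -0.04), but 0 were called by limma (0.0219% of all genes were, all lower). At an unadjusted p under 0.05 there were 21 members, where 4.24% of all genes were. Without number 1 the median interaction was smaller, -0.595, with 16 members at an unadjusted p under 0.05 (4.76% of all genes). The median genotype difference in the distal mandible was -0.222 with number 1 and -0.082 without it. The largest interaction was that of Ms4a7, -1.74 ± 0.41 (adjusted p = 0.185), followed by C1qc, -1.37 ± 0.38 (0.414). With only the 4 mandible groups in the fit, 6 members were called, among 51 of all genes (3 with all groups in the fit). The distal and proximal mandible were compared with separate control arrays. Epithelial markers also had less positive differences distally, with a median interaction of -0.64, 0 of 10 positive and 0 called. In the distal mandible their median difference was -0.29, and their mean level was 10.99 to 11.54 in controls and 10.54 to 11.18 in knockouts. In the proximal mandible 10 of 10 were higher in the knockout, with a median of 0.39 and 0 called. Their mean level there was 10.24 to 10.86 in controls and 10.65 to 10.97 in knockouts. Skeletal muscle markers had a median interaction of 1.53, with 12 of 12 positive and 0 called, and their mean level was 7.51 to 9.49 in the control and 9.11 to 10.28 in the knockout distal mandible. Neuron markers had a median difference of -0.29 in the distal mandible (1 of 12 positive, with Stmn2 called at -2.49), where their mean level was 7.94 to 8.61 in controls and 7.65 to 7.82 in knockouts. In the proximal mandible their median was -0.62 (0 of 12 positive, 0 called). Schwann cell and glial markers had a median of -0.47 in the distal mandible (0 of 6 positive, 0 called), with mean levels of 7.78 to 8.70 in controls and 7.56 to 7.99 in knockouts. Mesenchyme markers had a mean level of 12.12 to 12.15 in the control proximal mandible and 11.88 to 12.09 in the knockout, with 4 of 13 positive, a median of -0.15 and 0 called. The part of these tissues in the macrophage gene differences was not tested.

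**Figure D3:**
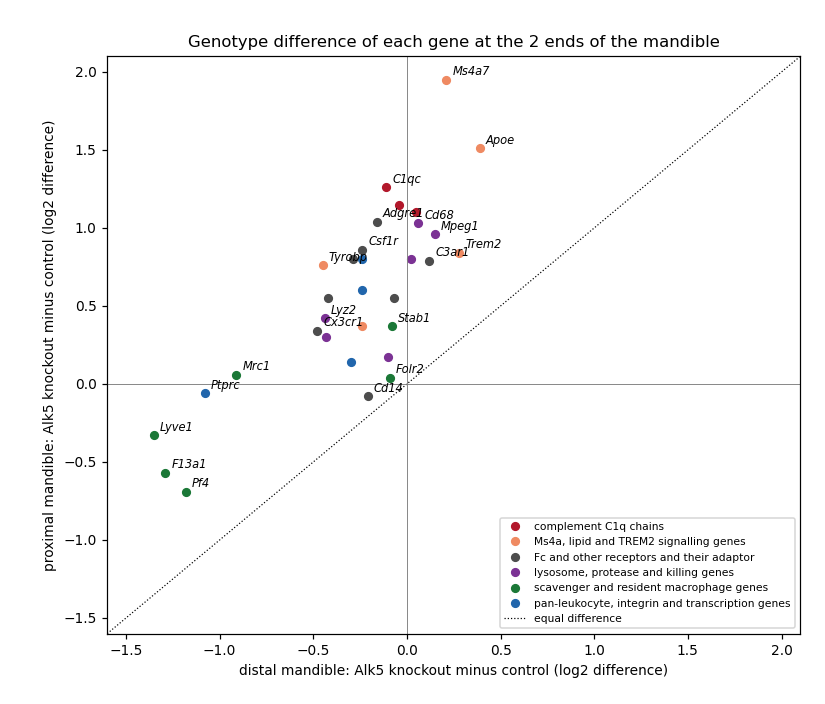
Log2 difference between Alk5 knockout and control of each of the 32 tested macrophage genes in the distal (horizontal axis) and proximal (vertical axis) mandible, coloured by role, with a dotted line of equal difference. All 32 points lie above the line, and Ms4a7 and Apoe lie highest.

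At the distal ends, the genotype difference was less positive or more negative in the mandible than in the maxilla for 31 of 32 members, with a median of -0.86 (all genes 0). At an unadjusted p under 0.05 there were 19 members, where 7.3% of all genes were. Only Ptprc was called, by -1.56 ± 0.31 (adjusted p = 0.0497, where 0.0949% of all genes were called lower). This call was lost in 19 of the 26 settings tried, 14 of them the omission of 1 array, and had an adjusted p of 0.184 without the maxilla arrays of control 3. Without the female arrays 11 members were called, among 73 of all genes (14 with them). In the same interaction neutrophil markers had a median of -1.44, with 0 of 6 positive and 0 called. Neuron markers had a median of -1.56, with 0 of 12 positive and 1 called lower. Skeletal muscle markers had a median of 2.12, with 12 of 12 positive and 0 called. The part of these cells and tissues in the macrophage gene differences was not tested. In the interaction between the ends of the maxilla 0 members were called by limma (0.0584% of all genes were), with 1, Cd14, at an unadjusted p under 0.05, where 4.78% of all genes were (-0.71, adjusted p = 0.151). Between the jaws proximally 0 were called (0.0073%) and 0 had an unadjusted p under 0.05, where 2.17% of all genes did.

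**Figure D4:**
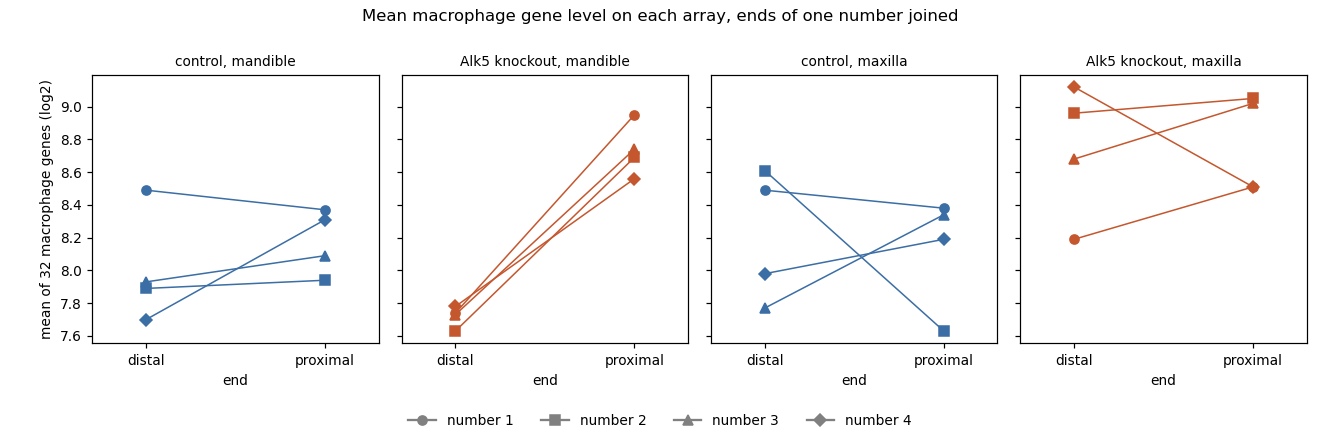
Mean log2 value of the 32 tested macrophage genes on each array, with the distal and proximal end of 1 number joined, by genotype and jaw. In the knockout mandible all 4 lines rise steeply from distal to proximal, while in the maxilla control 1, control 2 and knockout 4 run downwards and the others upwards.

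The ends also differed within numbers. In the knockout mandible the mean of the 32 genes was lower distally in all 4 numbers, by -1.21, -1.06, -1.02 and -0.78 for numbers 1 to 4. In the control mandible the differences were 0.12, -0.04, -0.17 and -0.60. In the maxilla they were 0.10, 0.98, -0.57 and -0.21 in controls and -0.33, -0.09, -0.34 and 0.62 in knockouts, and the values of 0.98 and 0.62 belong to control 2 and knockout 4, whose ends ran opposite over all genes. Averaging both ends of the maxilla per number leaves out the question of which end is which. Then Mpeg1 was called (1.15, adjusted p = 0.0326), as the only gene of the whole table, 24 of 32 members had an unadjusted p under 0.05 (7.02% of all genes), and Ms4a7 had a difference of 1.67 (adjusted p = 0.12). With the replicate number as a block 0 members were called.

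Between regions of control tissue few members were called. Distal and proximal control mandible differed in Mpeg1 only, which was lower distally by -0.68 ± 0.20 (adjusted p = 0.0499, where 2.55% of all genes were called lower), a call lost in 10 of 16 settings. In the same comparison neutrophil markers were lower distally in 5 of 6, among them S100a9 (-3.49) and S100a8 (-3.31), and their mean level was 6.74 to 7.55 distally and 8.07 to 9.70 proximally. Mpo, Elane and 4 more neutrophil markers lay under the low-signal level, and the part of these cells in the Mpeg1 difference was not tested. Between mandible and maxilla 0 members were called by limma in distal controls (1.47% of all genes were), with 2 at an unadjusted p under 0.05 (10.1% of all genes), Apoe (-0.87, adjusted p = 0.0602) and Trem2 (-0.29). In proximal controls 0 were called (5.4% of all genes), with 1 at an unadjusted p under 0.05 (15.1%). Between the ends of the control maxilla 0 were called, as were 0% of all genes, with 1 at an unadjusted p under 0.05 (2.96%).

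Groups without overlap were counted as well. Knockout arrays lay above all control arrays for 0 of 32 members in the distal mandible (4.3% of all genes), 20 in the proximal mandible (6.33%), 8 in the distal maxilla (2.18%) and 16 in the proximal maxilla (2.08%). They lay below all control arrays for 5 members in the distal mandible (8.02%), namely Lyz2, Mrc1, F13a1, Pf4 and Ptprc, and for Pf4 alone in the proximal mandible (5.5%) and distal maxilla (3.47%).

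The members were also related within groups. After removing the group means, each gene's correlation with the mean of the other 31 over 32 arrays ran from 0.95 for Fcgr3 and 0.94 for C1qc and Tyrobp down to 0.28 for Folr2, 0.19 for Pf4 and -0.43 for Cd14. These are descriptions over arrays that share dissections and a normalization. Mrc1 (0.76) and F13a1 (0.90), which did not rise with the knockout, still followed the others within groups. Control number 1 of the distal mandible, high for both, also had the highest mean of the 32 genes there (8.49, others 7.70 to 7.93). How far single arrays carry these correlations was not tested. Of genes that are no members, Gas6, a bridging ligand for engulfment, and P2ry6, a nucleotide receptor of phagocytes, were most alike (0.94 each), then Ms4a6b, Ms4a6d, Reps2, Cxcl12, Pon2, Thbd, Selenop and Vit (0.93 to 0.87). Among these 10, Selenop rose on average (0.50, adjusted p = 0.0286) and Reps2 fell (-0.55, adjusted p = 0.0498).

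**Figure D5:**
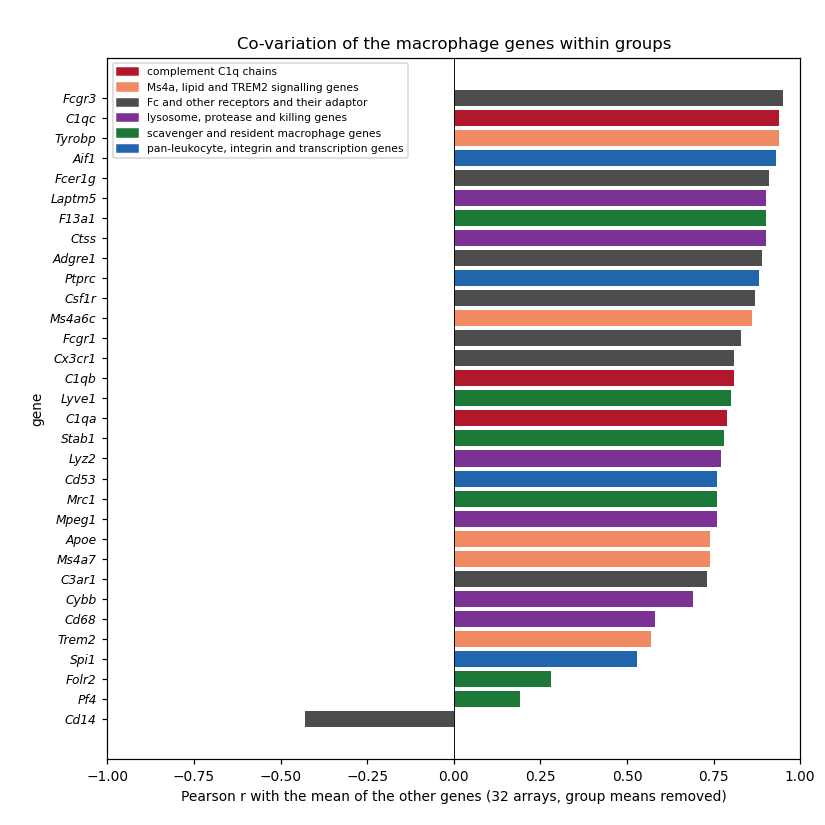
Pearson correlation of each of the 32 tested macrophage genes with the mean of the other 31, over 32 arrays after removing group means, as bars coloured by role. Most bars exceed 0.7, Pf4 and Folr2 are short, and Cd14 is negative.

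Of 45 further myeloid genes tested, 2 rose, the lysosomal transporter Slc15a3 (0.52) and the transcription factor Irf8 (0.39), with 35 positive and a median of 0.10. Of 32 lysosome and engulfment genes 1 rose, the apolipoprotein Apoc1 (0.58, and 1.18 in the proximal mandible), and the engulfment receptor Mertk rose in the proximal mandible (0.53, adjusted p = 0.0303). Of 18 growth factors, chemokines and their receptors 1 rose, the chemokine Ccl6 (0.41), while Csf1, a ligand of Csf1r, had a difference of -0.20 (adjusted p = 0.386). Of 5 alternative activation genes 1 rose, the arginase Arg1 (1.63, and 3.55 in the proximal mandible). Arginase is also made by other cells. Of 5 inflammatory activation and antigen presentation genes and of 10 other complement genes 0 were called. Of 8 microglia-type genes Tmem119 fell (-0.42), and of 9 osteoclast genes Nfatc1 fell (-0.58). By region, 2 of 9 osteoclast genes fell in the distal mandible and 2 of 9 in the proximal mandible, with 1 of 9 positive in each. At either end of the maxilla 0 of them were called. Their mean level was 7.73 to 8.24 in the control proximal mandible and 7.42 to 7.60 in the knockout. In the distal mandible Lst1, a myeloid gene, fell (-0.47).

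Markers of other blood cells and of vessels were not called on average. By limma, 0 of 6 neutrophil, 0 of 6 mast cell, 0 of 5 lymphocyte, 0 of 7 megakaryocyte, 0 of 6 erythroid and 0 of 17 endothelial markers passed in either direction. All 6 neutrophil and all 6 mast cell differences were positive, with medians of 0.21 and 0.15. Other lists went the other way on average, with 0 of 6 erythroid (median -0.14), 1 of 7 megakaryocyte (-0.24) and 8 of 17 endothelial differences (-0.05) positive. By region, neutrophil markers were positive in 3 of 6 in the distal mandible (median 0). They were positive in 1 of 6 in the proximal mandible (-0.32) and 1 of 6 in the proximal maxilla (-0.18). In the distal maxilla 1 of 17 endothelial markers was called lower, with 5 of 17 positive and a median of -0.13. The neutrophil gene Ngp (1.69) and the mast cell enzyme Hdc (0.83) rose there. All 6 of 6 neutrophil markers were positive there, with a median of 1.37. Their mean level there was 6.77 to 8.02 in controls and 8.26 to 9.22 in knockouts. Their part in the rise of Mpeg1, Ms4a7, C3ar1, Fcgr3 and Trem2 in the distal maxilla was not tested.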

How the data were processed

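Gene expression was measured on 32 Affymetrix mouse arrays in 8 groups of 4. The deposited values are log2 signals made by the authors with RMA, per the submitters' processing notes; its version is not given in the sources used here. They were used as deposited. Array medians were 7.35 to 7.49, arrays of a group correlated at 0.926 to 0.997, and 0 pairs were identical. Precision depends on the number of arrays.

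Of 45101 probe sets, 34945 have 1 gene symbol, 932 several, 9160 none and 64 are controls. The probe set with the highest mean stood for a gene. A gene was tested where it lay above the 40th percentile of the array (6.66 to 6.86) on at least 4 arrays. limma 3.58.1 in R 4.3.3 was fitted to 8 group means (24 residual degrees of freedom), and, for the average genotype effect, to the mean of 4 regions per genotype and number (6 residual degrees of freedom). P-values were adjusted by Benjamini-Hochberg over 13705 genes, with a threshold of 0.05, in 13 comparisons. The script was tested on simulated data.

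The members and the 19 other gene lists were chosen with earlier results of these data known. Values on every array are given for members called in a genotype comparison or interaction and for a fixed set of well-known markers, other members by differences or ranges, from other lists the called genes and up to 3 with the smallest adjusted p, and the 10 genes most correlated with the members. Numbers are shared between genotypes in the labels. The deviations of same-numbered averaged values correlated at 0.44, 0.20, 0.40 and 0.23, which speaks for pairing the averages, though not within each region. The average test reported first nevertheless left the number out, so its calls and p-values do not use this pairing. With the number as a block 9 members were called, among them 8 of the 10. Alternatives were the number as a fixed or random block, no filter, the mean of probe sets, repeated quantile normalization, only the compared groups, no number 1, and each array left out. Chosen after seeing the data were fits without female arrays, without the maxilla arrays of control 2 and knockout 4 or of control 3, with both maxilla ends averaged, and, for the average, without control 2 and knockout 4.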

Additional observations from a re-analysis of the deposited data

Results flagged for a closer look

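In 15 of 256 groups of 4 arrays the highest or lowest value of a member stood far from the other 3, and chance gives about 1 in 20 such groups. On the log2 scale, 3 of these values were low ones on the same array, that of control 2 in the proximal maxilla: Ptprc at 6.79 (others 7.82 to 7.94), Fcgr1 at 6.34 (6.97 to 7.09) and C3ar1 at 7.27 (7.65 to 7.69). Knockout 1 stood high in the proximal mandible for Lyz2 at 10.12 (9.50 to 9.59), Tyrobp at 10.10 (9.92 to 9.93), Aif1 at 7.94 (7.54 to 7.60) and Lyve1 at 6.27 (4.47 to 4.70). It stood high in the distal mandible for Trem2 at 7.20 (7.11 to 7.12) and Lyve1 at 4.77 (4.48 to 4.51). Knockout 4 stood low in the proximal maxilla for Cx3cr1 at 8.65 (8.99 to 9.06) and Cybb at 6.45 (6.79 to 6.84), and knockout 2 stood high there for Mpeg1 at 9.11 (8.56 to 8.61). Knockout 3 read 9.65 for Ms4a7 in the proximal mandible (9.50 to 9.51) and 7.68 for Mrc1 in the distal mandible (7.94 to 7.98). Control 2 read 7.13 for Cd14 in the proximal mandible (6.92 to 6.95).

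The genotype difference of Ptprc differed between the jaws at their distal ends, by -1.56 on the log2 scale in a test of the interaction (limma adjusted p = 0.0497).

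Xist, which is not a member, read 9.69 in the distal and 10.72 in the proximal maxilla of control 3. These values lay between the 6.38 to 6.96 of the other arrays with male Y-linked levels and the 13.34 to 14.06 of the 8 arrays of control 2 and knockout 1.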

How the results depend on the processing

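No direction of a called member turned in the alternatives run. On average, Ms4a7, Apoe and Mpeg1 each lost their call in 1 of 16 settings and C3ar1 in 2. Trem2 lost it in 6, C1qa and C1qc in 7, Adgre1 in 8, Ctss in 9 and Fcgr3 in 10. In the distal maxilla Trem2 lost its call in 15 of 19 settings, Fcgr3 in 7, C3ar1 in 3, Ms4a7 in 2 and Mpeg1 in 1. In the proximal maxilla Trem2 and Mpeg1 lost theirs in 11 of 19, Ms4a7 in 7 and C3ar1 in 6. The average effect called 10 members (188 of all genes), 21 without number 1 (939), 14 with the random block (562; Pf4 was lower), 0 without control 2 and knockout 4 (3), and 3 to 15 with 1 averaged value left out. The distal mandible called 2, Pf4 and Ptprc, in all 16 alternatives, leave-one-out fits (2 to 2) included. The proximal mandible called 8 (172 of all genes), 13 with only the compared groups (256), and 5 to 8 with 1 array left out. Ms4a7, Apoe, Trem2 and C3ar1 were called there in all 16. The distal maxilla called 5 (108 of all genes), 9 with the replicate block (315), 15 without number 1 (143), 21 without the female arrays (464), 8 without the maxilla arrays of control 2 and knockout 4 (255), 2 without those of control 3 (28), 0 with only the compared groups (2), 1 with both ends averaged (1), and 3 to 14 with 1 array left out. The proximal maxilla called 4 (9 of all genes), 1 without the maxilla arrays of control 2 and knockout 4, 0 with only the compared groups, 1 with both ends averaged, and 0 to 5 with 1 array left out. The interaction by end of the mandible called 0, 1 without the female arrays, 6 with only the compared groups. Its median of -0.85 ran from -0.967 to -0.595 over 24 settings, and was -0.595 without number 1. The interaction by jaw at the distal ends called 1, 3 with the random block (correlation 0.202), 11 without the female arrays, and 0 with the replicate block (Ptprc adjusted p = 0.0577), no filter, the mean of probe sets, only the compared groups or no maxilla arrays of control 3, and 0 to 2 with 1 array left out. Control mandible against maxilla distally called 0, and 1 with the random block, without number 1 or without the maxilla arrays of control 3, and 0 to 1 with 1 array left out. Distal against proximal control mandible called 1, 4 with the random block, 2 without the female arrays, 0 with no filter or without number 1, and 0 to 1 with 1 array left out; with the replicate block it called 1 other gene. Distal against proximal control maxilla called 0, and 1 without the maxilla arrays of control 2 and knockout 4. Pf4 was called lower in the proximal mandible and the distal maxilla with the replicate block, and Cd14 in the distal maxilla without the female arrays. The cause of these changes was not tested.

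Within regions the same-numbered arrays did not all correlate above 0.1. The replicate block was an alternative there, as it was for the average. Signal limited Lyve1, Cybb and Aif1, which lay under the low-signal level on 26, 22 and 13 of 32 arrays. Ptprc lay under it on 1 array and close to it in the knockout distal mandible.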
